A study of Rattus norvegicus with 27 samples.

Results

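The medial prefrontal cortex (mPFC) lies against the medial wall of the hemisphere, so a piece cut from it can carry a strip of the membranes that cover the brain. The 27 RNA-sequencing libraries of mPFC tissue, each from 1 adult male Wistar rat, were ranked by the mean of log2(normalized count + 1) over 4 genes that mark meningeal fibroblasts, namely Col1a1, Col3a1, Igf2 and Aldh1a2. The 9 libraries with the highest mean, here called meninges-rich, were compared with the 9 with the lowest mean, called meninges-poor, across the other genes. The 9 libraries between them entered neither group. These groups were set by measured values and are not groups of the study. All 27 rats had the same strain, genotype and housing, had passed through repeated elevated plus-maze, light-dark and open field tests, and were killed at rest, taken directly from the home cage. The rats had been picked to cover the range of a composite anxiety score, and the scores were not used here. The sample labels name learned helplessness as the treatment and add acoustic startle and fear conditioning to the tests, whereas the methods of the study describe the anxiety tests for these Wistar rats and the other tests for another strain. Bilateral tissue holding infralimbic, prelimbic and anterior cingulate cortex was cut on ice from brains washed in saline, and neither source speaks of removing the meninges.

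The leptomeninges, that is, the pia mater on the brain surface and the arachnoid above it, consist largely of fibroblasts that lay down collagen and basement membrane. Arachnoid barrier cells seal the fluid-filled space from the dura and carry transporters for organic anions and other solutes. Larger arteries with a coat of smooth muscle run through this space before they enter the cortex, and macrophages of the brain borders live beside them. Meningeal fibroblasts are also known as a source of retinoic acid, which Aldh1a2 makes, of insulin-like growth factor 2 (Igf2) and of bone morphogenetic proteins (BMPs).

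The 4 ranking genes are given as a description, since they chose the groups. The score lay between 8.47 and 10.09 in the meninges-rich libraries (9.03 ± 0.50, SD, n = 9) and between 5.8 and 6.395 in the meninges-poor libraries (6.18 ± 0.22, SD, n = 9). Col3a1 had 524 ± 212 normalized counts (SD, n = 9) in the meninges-rich and 44.9 ± 14.1 in the meninges-poor libraries, a ratio of 11.7. The ratio was 10.1 for Igf2, 7.06 for Col1a1 and 3.93 for Aldh1a2. At the upper border, rat 22 with a score of 8.47 was inside and rat 20 with 8.32 was outside. At the lower border, rat 54 was inside and rat 47 outside, and both had a score of 6.395. The largest gap in the ranking, 1.15, lay above these 2 libraries, after rank 17, so rat 47 had the ranking genes at the level of the meninges-poor libraries although it counted among the middle ones. The ranking showed a step at the low end and a slope without a clear step at the high end.

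**Figure D1:**
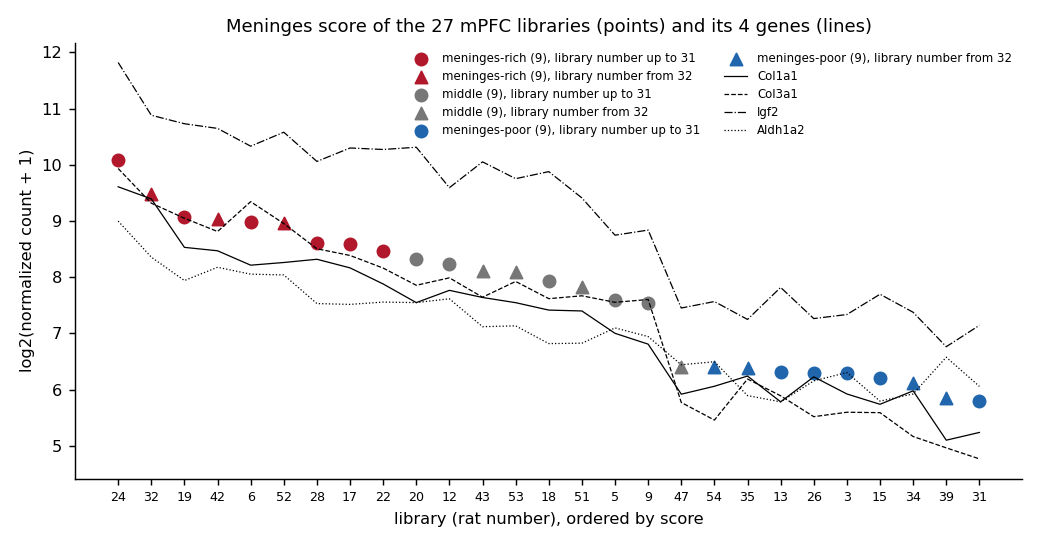
The score (points, mean log2(normalized count + 1) of 4 genes) and each of the 4 genes (lines) in the 27 libraries, ordered by score and named by rat number. Red, grey and blue points are the 9 meninges-rich, 9 middle and 9 meninges-poor libraries, circles are library numbers up to 31 and triangles numbers from 32. The score falls from 10.09 in rat 24 to 5.8 in rat 31, with the largest gap, 1.15, before rat 47.

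Both groups held libraries of either number range. Of the meninges-rich libraries, 6 were numbered up to 31 and 3 from 32, and of the meninges-poor libraries 5 and 4 (Fisher's exact test, two-sided, p = 1). The labels say nothing of what the number marks. The methods of the study draw these rats from more than 1 cohort, without giving the cohort of each library. Library totals lay apart between the number ranges, at 4907255 to 8568317 counts up to 31 and 9404220 to 12771309 from 32. What sets the ranges apart was not tested. Library totals ran from 4907255 to 12238280 counts in the meninges-rich and from 5654175 to 10992724 in the meninges-poor libraries. Over 6 measures (the total, the number of genes with a count, the share of the 10 highest genes, and the shares of Rn18s, Bc1 and Rn7sl1), the smallest p was 0.199 for the number of genes with a count (exact permutation test over samples, two-sided, adjusted p = 0.686). In bulk tissue, more cells of a type and more RNA per cell cannot be told apart.

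Of 11726 genes tested with the ranking genes left out, 187 (1.59%) were higher in the meninges-rich libraries and 3 (0.0256%) were lower (edgeR's quasi-likelihood test, Benjamini-Hochberg adjusted p under 0.05). Of the 187 higher genes, 61 stood in 1 or more of the 25 gene lists, among them lists of leptomeningeal fibroblasts, matrix, barrier transporters and mural cells, and 126 stood in none. Their median log2 fold change was 1.22, from 0.219 to 5.36, while the median over all genes tested was -0.00259. A total of 116 differed at least 2-fold and 52 at least 4-fold. All 73 genes (0.623% of those tested) whose lowest meninges-rich value lay above the highest meninges-poor value were among the 187, and no gene had the groups apart in the other direction. At an unadjusted p under 0.05, 525 genes (4.48%) were higher and 250 (2.13%) lower. The 187 genes took 0.298 to 0.589% of all counts in the meninges-rich libraries (median 0.347%) and 0.148 to 0.184% in the meninges-poor libraries (median 0.158%), so these transcripts made up a small part of every library. Of the 187 genes, 24 had a mean under 10 raw counts in the libraries outside the meninges-rich group, so they reached the count minimum through the group where they are high and had to differ. They include Twist1, Bmp5, Clec10a and Cnn1, 1 in each of the fibroblast, signalling factor, macrophage and mural cell lists. Eya2, outside the lists, is another. The p-values state how far genes varied together with the ranking genes over these rats, and no treatment separates the groups.

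Genes of leptomeningeal fibroblasts differed as a group. Of 30 listed genes, 26 were tested, 21 were higher and none was lower, against 1.59% higher over all genes, and the median log2 fold change was 1.77. All 26 had a positive difference, and in 14 the groups did not overlap, against 0.623% of all genes tested. The summed level of the list was 8737 to 18276 normalized counts in the meninges-rich and 2989 to 4649 in the meninges-poor libraries. The groups were set on fibroblast genes of the same libraries, so these values describe the groups and are no independent check of their label. Ngfr and Slc47a1 lay under the count minimum, and Crabp2 and Itih2 are listed at 0 in all 27 libraries.

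Col1a2, which encodes the partner chain of Col1a1 in type I collagen, had 208, 255 and 589 normalized counts in the meninges-rich libraries (lowest, median and highest) and 24.8, 33.6 and 61.8 in the meninges-poor libraries. The groups lay apart, and the log2 fold change was 3.17 ± 0.22 (SE, adjusted p = 7.54e-09, edgeR). Igfbp2, a binding protein for insulin-like growth factors, had 540, 685 and 1312 against 68.9, 81.8 and 107. Every meninges-rich library was thus at least 5-fold above the highest meninges-poor one, and the log2 fold change was 3.21 ± 0.18 (adjusted p = 3.70e-10). Ptgds, prostaglandin D synthase, which the leptomeninges release into the cerebrospinal fluid, had 3423, 7387 and 11145 against 658, 838 and 1493 normalized counts. Its log2 fold change was 3.02 ± 0.22. Ogn, the proteoglycan osteoglycin, stands in 2 rows of the table because of its loci, which makes its counts uncertain. The rows gave log2 fold changes of 3.58 and 3.56.

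Several members of the fibroblast list are transcription factors. Foxc1, which is required for the meninges to form over the forebrain, had 122, 198 and 278 normalized counts in the meninges-rich and 70.3, 83.8 and 117 in the meninges-poor libraries (log2 fold change 1.11 ± 0.15, adjusted p = 6.60e-05). Its relative Foxc2 had 24.2, 33.2 and 89.8 against 2.12, 5.24 and 7.65 (3.15 ± 0.30, adjusted p = 5.58e-07). Neither gene had overlapping groups. The log2 fold change of Tbx18, a T-box factor of mesenchymal and mural cells, was 2.34, that of Foxd1 2.24, that of Osr1 1.79 and that of Zic2 0.85, all past the test. Twist1 (1.6) was also called, but it passed the count minimum through the meninges-rich group. Zic1 had 64 to 138 against 27.5 to 86.3 normalized counts and did not pass (adjusted p = 0.118). Outside the lists, Tfap2b (2.79), Eya2 (3.68) and Msx1 (1.04), developmental regulators of cranial mesenchyme and neural crest, were also higher. Of these, Eya2 had 18 reads over the 9 meninges-poor libraries and passed the count minimum through the meninges-rich group.

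**Figure D2:**
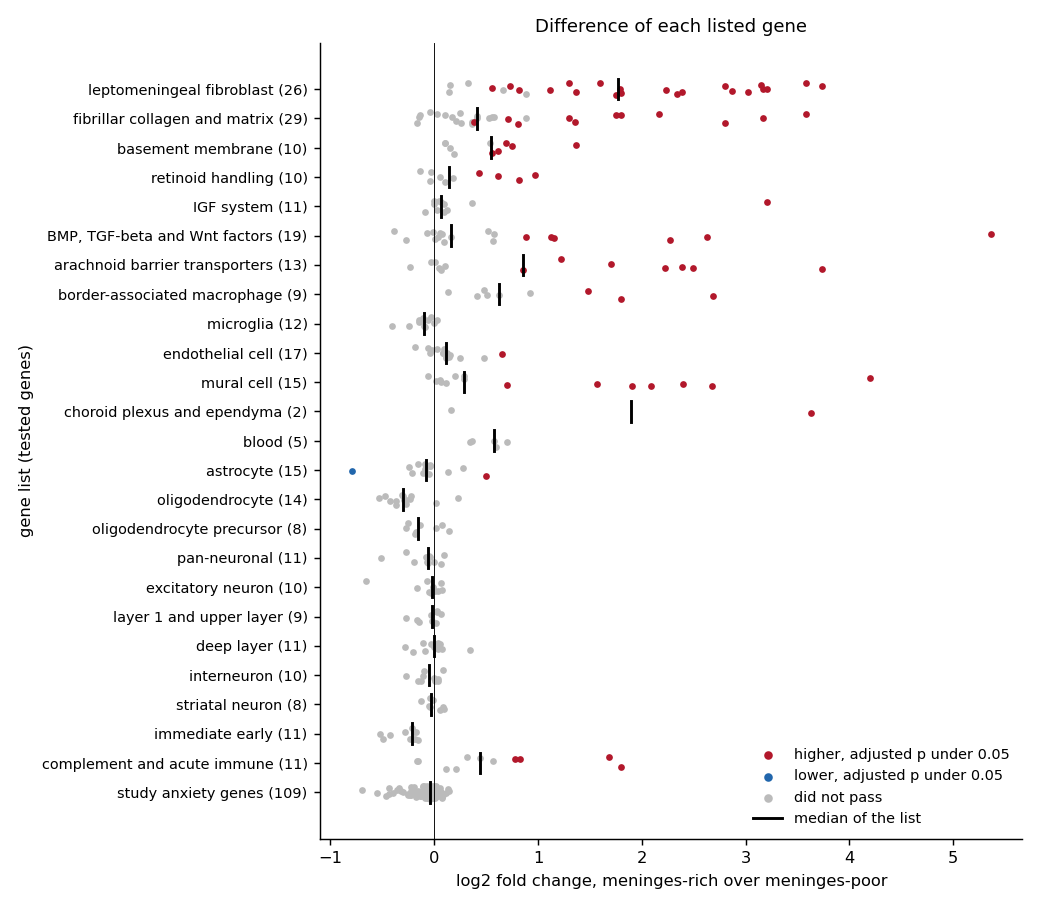
Log2 fold change (x axis, meninges-rich over meninges-poor) of every tested gene in 25 lists (y axis, number of tested genes in brackets). Red points were higher and blue points lower at an adjusted p under 0.05, grey points did not pass, and black bars are medians. Fibroblast genes have a median of 1.77, and the neuronal lists have medians close to 0.

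Among collagens and other matrix genes, 11 of 29 tested were higher (1.59% over all genes) and none lower, with a median log2 fold change of 0.41 and 25 positive differences. Among the 11, Col1a2, Dcn, Bgn, Fmod, Ogn and Mgp are also counted in the fibroblast list. So are Lama1, Slc6a13, Slc22a6 and Aldh1a1 of the lists below, and the lists are thus not independent of each other. Fmod, a small proteoglycan that shapes collagen fibrils, had 137, 158 and 371 against 25.4, 30.2 and 34.9 normalized counts (2.81 ± 0.20). Bgn had 261, 388 and 836 against 109, 119 and 190 (1.80 ± 0.20), both without overlap. Dcn (1.30) and the calcification inhibitor Mgp (1.75) were higher with overlapping groups. Pcolce, which helps to cleave the ends of procollagen I, differed by 2.17, and the fibre proteins Mfap4, Fbln1 and Eln by 1.36, 0.81 and 0.71, of which Eln lost its call without 9 of the 18 single libraries. Serpinh1, the collagen chaperone, had the smallest called difference of the list, 0.38 ± 0.09 (adjusted p = 0.0343), and lost its call without 10 of the 18 single libraries.

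Not every matrix gene followed. Sparc, a matrix protein made in quantity by astrocytes and vessels, had 3836, 4438 and 5339 against 3532, 4276 and 5485 normalized counts, and its log2 fold change was 0.03 ± 0.08 (adjusted p = 0.999). Fibronectin (Fn1) had 463 to 1102 against 249 to 713 and Col5a2 444 to 646 against 386 to 599, and neither passed. Of the matrix genes, Fbln2, Col6a1, Col6a3 and Col12a1 are listed at 0 in all libraries, as are widely used genes such as Hspg2, so nothing can be read from those zeros.

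Basement membrane genes were higher in 5 of 10 tested (1.59% over all genes) and lower in none (median 0.55, all 10 positive). Nid2, a nidogen that links laminin to collagen IV, had 48.3, 69.7 and 136 against 18.4, 29.1 and 36.7 normalized counts (1.36 ± 0.19, no overlap). Lamb2 differed by 0.69, Lamc3 by 0.61, Col18a1 by 0.75 and Lama1 by 0.55. The laminin chain Lamc1 and the collagen chain Col4a1, both also made by capillaries, had 487 to 637 against 450 to 588 and 378 to 497 against 323 to 530 and did not pass. The calls of Lama1 and Col18a1 were fragile, being lost without 14 and 12 of the 18 single libraries.

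Transporters of the arachnoid barrier were higher in 7 of 13 tested (1.59% over all genes) and lower in none, with a median log2 fold change of 0.86. Slc22a6, the organic anion transporter OAT1, had 95.2, 123 and 249 normalized counts in the meninges-rich and 3.18, 10.9 and 15.3 in the meninges-poor libraries. The groups lay far apart, and the log2 fold change of 3.74 ± 0.24 (adjusted p = 3.41e-09) was the largest in the list. Its relative Slc22a8 (OAT3) had 157, 270 and 430 against 91.8, 121 and 158 (1.22 ± 0.17). The groups of Slc22a8 overlapped narrowly. Slc13a3, a dicarboxylate carrier, differed by 2.49, the GABA and taurine transporter Slc6a13 by 2.39, the sulfate carrier Slc13a4 by 2.23, the proline transporter Slc6a20a by 1.70 and Slc16a11 by 0.86. The ascorbate transporter Slc23a2, which neurons use, had 1171 to 1559 against 1080 to 1527 normalized counts and did not pass, nor did the efflux pumps Abcg2 (57.0 to 217 against 57.4 to 232) and Abcc4 (68.8 to 113 against 43.8 to 122).

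Some junction genes were also higher. Gjb2, the gap junction protein connexin 26, had 164, 197 and 348 against 30.3, 38.8 and 45.6 normalized counts (2.55 ± 0.15, no overlap). Gjb6 (connexin 30), which astrocytes also make, differed by 0.50 ± 0.09 with overlapping groups. The claudin gene Cldn11, of myelin and arachnoid, had 979 to 1924 against 931 to 2878 normalized counts and did not pass. Cdh1, E-cadherin of the arachnoid barrier layer, had a median of 42 against 5.89 normalized counts (2.87 ± 0.45, adjusted p = 4.71e-04). Its lowest meninges-rich value, 1.73 in rat 6, lay below all meninges-poor values. Itgb4, an integrin of hemidesmosomes, was likewise lowest among the meninges-rich libraries in rat 6, at 20.8, against 39.3 to 256 in the others, and its log2 fold change was 2.41 ± 0.38. Rat 6 thus had little Cdh1 and Itgb4 although its Col1a2, at 306 normalized counts, was above the median of the meninges-rich group.

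Tnnt2, the troponin T of heart muscle, differed most of all genes whose mean over the 27 libraries reached 50 normalized counts (4.02 ± 0.30, adjusted p = 1.53e-08), with 26, 91 and 156 against 2.12, 7.34 and 10.1. The lowest meninges-rich value was again that of rat 6. Aqp1, the water channel of choroid plexus, of some arachnoid cells and of vessels, had 29.3, 90.4 and 313 against 4.59, 9.30 and 17.8 normalized counts (3.63 ± 0.42, adjusted p = 8.14e-06). Here rat 6 had the highest value of all. Rat 6 was therefore low in Cdh1, Itgb4 and Tnnt2 and high in Aqp1. Aqp1 stood in the list of choroid plexus and ependyma, of which only it and Foxj1 passed the count minimum. The defining choroid plexus gene Ttr had 0 to 16 normalized counts in the meninges-rich and 0 to 5.05 in the meninges-poor libraries, Kcnj13 had 6.30 to 30.7 against 0 to 4.65, and Folr1 is listed at 0. Foxj1, the regulator of ciliated ependyma, had 11.1 to 27.1 against 11.6 to 26.7.

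Of the 14 named genes with the largest rise, 10 have a promoter in the RefSeq table of the GRCr8 build. In the 250 bases before the annotated start, 3 motifs were sought, as the members moved together. They were the CArG box, bound by serum response factor in muscle genes (CC, then 6 bases of A or T of which 1 may be G or C, then GG, either strand), the TATA box (TATAAA, on the strand of the gene) and the forkhead core (GTAAACA, either strand). A CArG box can itself hold TATAAA. Only Aqp1 and Acta2 had a match within the 150 bases next to the start, and these stretches are shown with the matches in capitals. A match is a run of letters and no evidence of binding. The Aqp1 stretch is chr4:85812634-85812783 on the plus strand, with the TATA match beginning 30 bases before the start. The Acta2 stretch is chr1:241172504-241172653 on the minus strand, with CArG matches beginning 134 and 84 bases before the start.
Aqp1: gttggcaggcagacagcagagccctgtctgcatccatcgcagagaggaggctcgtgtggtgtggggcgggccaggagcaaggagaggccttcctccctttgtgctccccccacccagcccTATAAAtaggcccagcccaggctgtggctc
Acta2: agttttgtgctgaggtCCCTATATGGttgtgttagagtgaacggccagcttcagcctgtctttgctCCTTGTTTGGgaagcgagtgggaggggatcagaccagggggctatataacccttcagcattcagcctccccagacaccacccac

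A CArG match stood in 13 of the 129 promoters of higher genes (10.1%), in 688 of the 9522 promoters of tested genes (7.23%) and in 2187 of all 27457 promoters (7.97%). For the TATA box the counts were 11 (8.53%), 403 (4.23%) and 2301 (8.38%), and for the forkhead core 2 (1.55%), 181 (1.90%) and 892 (3.25%). Of the 4 higher mural cell genes with a promoter in the table (Acta2, Cnn1, Des and Vtn), Acta2 alone had a CArG match.

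Of 15 genes of mural cells, that is, smooth muscle cells and pericytes, 7 were higher (1.59% over all genes) and none lower (median 0.29). Acta2, the actin of smooth muscle, had 80.5, 222 and 912 normalized counts in the meninges-rich and 37.9, 47.3 and 151 in the meninges-poor libraries (2.67 ± 0.43, adjusted p = 6.30e-04). The groups overlapped only through rat 3, the highest of the meninges-poor libraries, since the next was at 60.2. The actin-binding protein Tagln had 113, 265 and 1020 against 55.7, 75.2 and 197 (2.40 ± 0.40), and again rat 3 was the highest meninges-poor library. The smooth muscle myosin Myh11 had 222, 390 and 1194 against 109, 136 and 199 (1.91 ± 0.29, no overlap). Myl9 differed by 1.56, the intermediate filament Des by 2.08 and Vtn, which pericytes make, by 0.70. Cnn1 (calponin) had a log2 fold change of 4.2 ± 0.68 on few reads, 258 over the 9 meninges-rich and 14 over the 9 meninges-poor libraries, and it passed the count minimum through the meninges-rich group. Outside the lists, Pln (2.03) and Tpm2 (1.27), both of contractile cells, were higher. The other pericyte genes Pdgfrb (294 to 508 against 259 to 441, log2 fold change 0.29), Rgs5 (44.5 to 135 against 42.6 to 129), Abcc9, Kcnj8 and Higd1b did not pass.

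Smooth muscle genes were set beside fibroblast genes in each library. The mean log2(normalized count + 1) of Acta2, Tagln, Myh11, Myl9, Des and Cnn1, chosen after the values were seen, ran from 5.96 in rat 52 to 8.91 in rat 24 among the meninges-rich libraries. The same mean for Col1a2, Ogn, Igfbp2, Slc22a6, Ptgds and Fmod ran from 8.26 to 9.55, in a group chosen for fibroblast genes. Over all 27 libraries the means ran from 4.99 to 8.91 and from 5.29 to 9.55. Rats 32 and 52 had fibroblast means of 9.40 and 8.65 but smooth muscle means of 6.31 and 5.96, inside the range of the middle libraries (4.99 to 6.33). Rats 24, 19 and 6 had smooth muscle means of 8.91, 8.61 and 8.26. The meninges-poor libraries had smooth muscle means of 5.00 to 5.70, below all meninges-rich libraries. Among rats with high fibroblast genes, smooth muscle genes thus ranged from just above the meninges-poor level upwards.

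**Figure D3:**
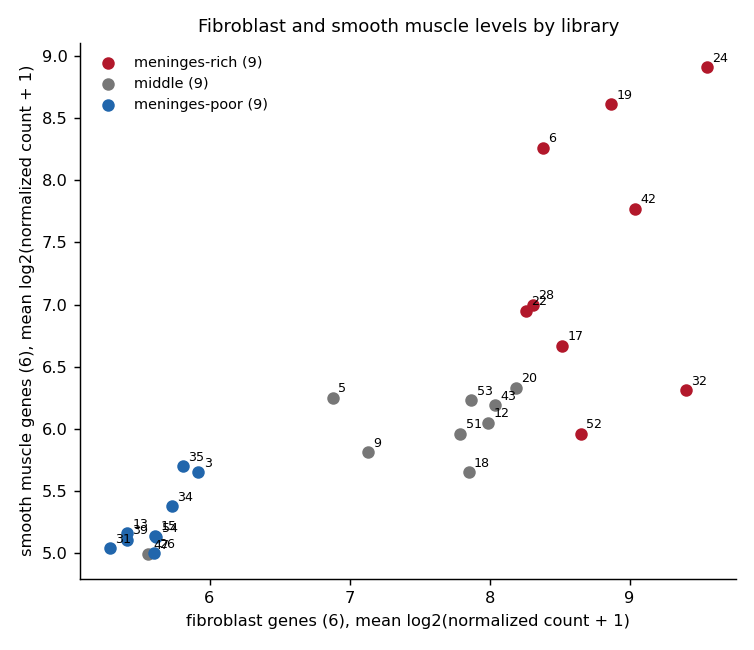
Each point is 1 library, named by rat number. The x axis is the mean log2(normalized count + 1) of 6 fibroblast genes and the y axis that of 6 smooth muscle genes, in meninges-rich (red), middle (grey) and meninges-poor (blue) libraries. Rats 32 and 52 lie far right at smooth muscle means of 6.31 and 5.96, and rat 24 is highest at 8.91.

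Of 17 endothelial genes, 13 had positive values (median 0.11) and 3 were higher at an unadjusted p under 0.05, beside 4.48% of all genes. The 1 gene called, beside 1.59% of all genes, was Vwf, the clotting factor carrier that larger vessels and veins express most, with 305, 485 and 785 against 262, 326 and 490 normalized counts (0.65 ± 0.14, adjusted p = 0.0117). The capillary junction gene Cldn5 had 837, 1015 and 1234 against 687, 881 and 1471, and its log2 fold change of 0.12 did not pass. Outside the list, Angpt2, which endothelium releases during vessel remodelling, differed by 2.35 at 16.7 to 59.6 against 0 to 11.8 normalized counts.

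Among signalling factors, the Wnt, BMP and retinoid genes differed in a few members. Wnt6 had the largest difference of all, with 34.3, 65.2 and 101 normalized counts in the meninges-rich and 0, 0.842 and 3.63 in the meninges-poor libraries. It was at 0 in 3 of the meninges-poor libraries and had 13 reads in all 9 together, against 615 in the meninges-rich, so its log2 fold change of 5.36 ± 0.37 (adjusted p = 6.22e-09) rests on few reads on the low side. Sfrp1, a secreted Wnt antagonist, had 76.1, 152 and 454 against 18.9, 30.7 and 48.8 (2.63 ± 0.33). Of the BMPs, Bmp5 differed by 2.27, Bmp7 by 1.15 and Bmp6 by 0.88, Bmp5 having passed the count minimum through the meninges-rich group, while Bmp4 had 45 to 126 against 34.1 to 93.3 and did not pass. Ltbp1, which holds latent TGF-beta in the matrix, differed by 1.12. The chemokine Cxcl12 had 958 to 1680 against 889 to 1468 and the TGF-beta genes themselves (Tgfb1, Tgfb2 and Tgfb3) did not pass either. In all, 6 of 19 tested were higher (1.59% over all genes) and none lower, with a median of 0.16.

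Retinoid genes were higher in 4 of 10 tested (1.59% over all genes) and lower in none (median 0.14). Aldh1a1, a relative of the ranking gene Aldh1a2, had 170, 211 and 381 against 113, 120 and 174 normalized counts (0.82 ± 0.13, adjusted p = 5.15e-04). The retinol carrier Rbp4 differed by 0.43 and Rarres2 (chemerin) by 0.62, but Rbp4 had a negative slope in the middle libraries, and Rarres2 lost its call without 13 of the 18 single libraries (adjusted p up to 0.0994). The retinoic acid-degrading enzyme Cyp26b1 had 195 to 533 against 200 to 411, and the retinoic acid receptor Rarb, a textbook target gene of retinoic acid, 55.3 to 82.8 against 56.6 to 81.2. Neither passed. In the insulin-like growth factor system, Igfbp2 was the only gene called of 11 tested (1.59% higher and 0.0256% lower over all genes, median 0.06). Igfbp7 (849 to 1313 against 859 to 1344), Igfbp4 (451 to 853 against 509 to 908) and the receptor gene Igf2r (526 to 629 against 457 to 636) overlapped almost fully.

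**Figure D4:**
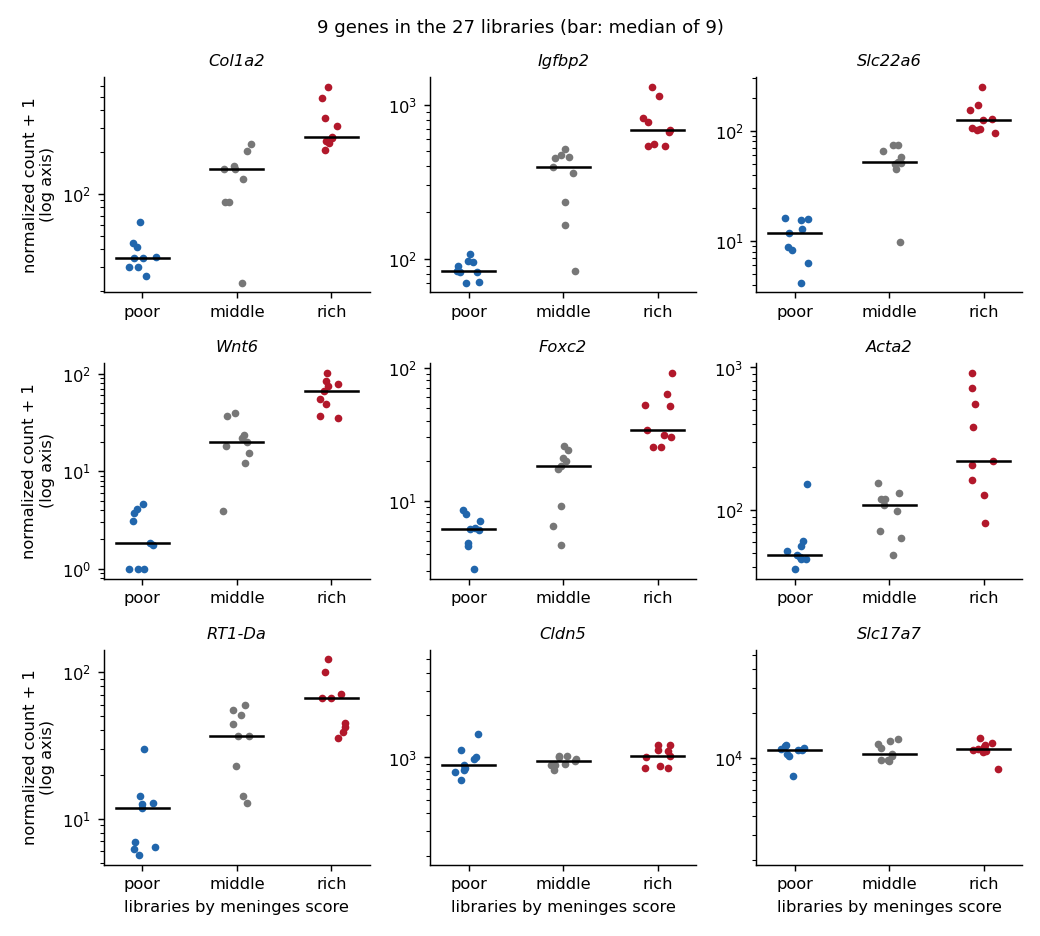
Normalized count + 1 (y axis, log scale) of 9 genes in the meninges-poor (blue), middle (grey) and meninges-rich (red) libraries, 9 each, with bars at the medians. Col1a2, Igfbp2, Slc22a6, Wnt6, Foxc2 and RT1-Da do not overlap between rich and poor, Acta2 overlaps through 1 poor library at 151 normalized counts, and Cldn5 and Slc17a7 overlap throughout.

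Of 9 genes tested from the list of border-associated macrophages, 3 (Cd74, RT1-Da and Clec10a) were higher (1.59% over all genes) and none lower, with a median of 0.62 and 9 positive. Cd74, the invariant chain of MHC class II, had 152, 239 and 356 normalized counts against 34.9, 81.8 and 252 (1.48 ± 0.30, adjusted p = 0.00687). The overlap came from rat 3, as the next meninges-poor library was at 128. Its slope on the score did not pass in the libraries numbered up to 31. The class II genes RT1-Da and RT1-Db1 differed by 2.69 and 1.97, and RT1-Ba had 31.4 to 137 against 6.97 to 154 and did not pass. Counts of RT1 genes are uncertain because of their near-identical copies. The lectin Clec10a of dendritic cells and macrophages differed by 1.80 and passed the count minimum through the meninges-rich group. The mannose receptor Mrc1 had 77.4, 133 and 368 against 34.1, 131 and 384 (0.13 ± 0.41). Lyve1 (18.6 to 35.6 against 11.7 to 23.6, adjusted p = 0.0875) and F13a1 (15.2 to 44.9 against 6.29 to 20.6, adjusted p = 0.0535) lay close to the threshold. Of 12 microglial genes, 11 had negative values (median -0.10), and 0 were called by edgeR or by DESeq2. At an unadjusted p under 0.05, 3 were lower and 0 higher, beside 2.13% lower and 4.48% higher over all genes. Their receptor gene Csf1r had 730 to 1018 against 797 to 1208 (-0.09 ± 0.08).

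Of the complement and acute immune genes, 4 of 11 were higher (1.59% over all genes) and none lower (median 0.44). Serping1, the inhibitor of complement C1, had 75.7, 138 and 223 against 25.2, 31.8 and 82.7 normalized counts (1.80 ± 0.25). The proteases C1r and C1s that it blocks differed by 0.83 and 0.78, and the chemokine Cxcl16 by 1.69 without overlap. The subunits C1qa and C1qb, which microglia make, had 441 to 710 against 489 to 646 and 288 to 407 against 282 to 401. C3 and Cfb, the genes most tied to inflammation, had 120 to 360 against 147 to 301 and 128 to 504 against 150 to 497 and did not pass.

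The 3 genes called lower were Slc1a2, Stac2 and Znrd2. Slc1a2, the astrocyte glutamate transporter GLT-1, had 155, 205 and 332 normalized counts in the meninges-rich and 199, 374 and 550 in the meninges-poor libraries. The groups overlapped, and the log2 fold change was -0.79 ± 0.18 (adjusted p = 0.0242). Stac2 had 489 to 829 against 688 to 1130 (-0.41 ± 0.10) and Znrd2 315 to 347 against 343 to 422 (-0.18 ± 0.05). The call of Slc1a2 was lost without rat 19, 24, 32, 52, 13, 15 or 31 (adjusted p up to 0.0620), that of Stac2 without 12 of the 18 libraries (up to 0.0753) and that of Znrd2 without 15 (up to 0.115). Znrd2 lost its call with the number range as a covariate, and all 3 lost theirs in the slope over the 27 libraries with that covariate. Slc1a2 was not called in either number range alone, and in the middle libraries the slopes of Slc1a2 and Stac2 on the score were positive. Of 15 astrocyte genes, Slc1a2 was lower, Gjb6 higher and the others, such as Slc1a3 (5134 to 6503 against 5213 to 7151), did not pass (median -0.08). In all, 12 of the 15 had negative values, and at an unadjusted p under 0.05, 4 were lower and 1 higher, beside 2.13% and 4.48% of all genes.

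Neuronal genes overlapped between the groups. Among 59 tested genes of the pan-neuronal, excitatory, upper layer, deep layer, interneuron and striatal lists, edgeR and DESeq2 called 0, and the medians of the lists lay between -0.06 and 0.00. At an unadjusted p under 0.05, 6 were lower and 0 higher, beside 2.13% and 4.48% of all genes. Slc17a7, the vesicular glutamate transporter of cortical excitatory neurons, had 8395, 11409 and 13608 against 7479, 11304 and 12160 normalized counts (0.08 ± 0.08). Snap25 had 21816 to 27116 against 21309 to 28202 (-0.08 ± 0.05). The layer 1 gene Reln, whose cells lie nearest to the pia, had 898 to 1339 against 746 to 1255. Genes of striatal neurons such as Ppp1r1b (967 to 1394 against 1078 to 1647) were present in every library. Sst and Syp are listed at 0 in all libraries.

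Most values of myelin, blood and activity genes lay to 1 side, while edgeR called no gene of these lists between the groups. Of 14 oligodendrocyte genes, 12 had negative values (median -0.30), 0 were called by edgeR and 1 by DESeq2, and 6 were lower at an unadjusted p under 0.05, beside 2.13% lower and 4.48% higher over all genes for this and the lists that follow. The list summed to 19770 to 37646 normalized counts in the meninges-rich and 23472 to 68079 in the meninges-poor libraries. Mbp had 8109, 12352 and 17334 against 10975, 17135 and 33372 (-0.48 ± 0.18, adjusted p = 0.428). All 5 blood genes tested, 3 of them at an unadjusted p under 0.05, had positive values and 0 were called by edgeR or DESeq2 (median 0.58), with sums of 2102 to 6584 against 1455 to 3141. Hba-a1 had 1016, 1495 and 3910 against 767, 1081 and 1862 (0.70 ± 0.22, adjusted p = 0.178), and its slope on the score passed in the 16 libraries numbered up to 31. All 11 immediate early genes, 1 of them at an unadjusted p under 0.05, had negative values and 0 were called by edgeR or DESeq2 (median -0.22), Arc with 603 to 1394 against 772 to 1754 (-0.49 ± 0.18, adjusted p = 0.367). The part of blood, myelin and activity in the differences given above was not tested. Of 8 genes of oligodendrocyte precursors, 0 were called by edgeR or DESeq2 (median -0.16, 1 higher and 2 lower at an unadjusted p under 0.05), and no gene of the mitochondrial genome matched a row. In the 9 middle libraries, 0 of 5 blood genes and 1 of 14 oligodendrocyte genes had a positive slope on the score, while 11 of 11 immediate early genes did. With all 9, blood and activity thus lay on the opposite side and oligodendrocyte genes on the same side. These slopes lean on rat 47, which had the lowest score of the 9, 6.395. Its mean log2(normalized count + 1) of Hba-a1, Hbb and Hbb-b1, 9.69, was the highest of the 9. Rats 9 and 5, next above it in score, had the lowest means, 8.76 and 8.67.

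The 109 genes that the study lists as related to anxiety measures in these rats were all tested, and 0 were called by edgeR or DESeq2 (median -0.04, 23 positive and 86 negative, 4 lower and 0 higher at an unadjusted p under 0.05, beside 2.13% and 4.48% of all genes). That list was chosen on these samples. Among them, at low counts, Cytip had 7.02 to 41.8 against 3.10 to 91.8 normalized counts (-0.44 ± 0.49) and F7 had 6.07 to 44.9 against 1.55 to 56.9 (-0.36 ± 0.49).

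The same genes could be followed in libraries that do not share rats. With the score as a continuous covariate, 170 genes (1.45%) rose with it in the 16 libraries numbered up to 31 and 177 (1.51%) in the 11 numbered from 32 (edgeR, adjusted p under 0.05). A total of 110 genes were called in both, which is 64.7% of the first set and 62.1% of the second. Per unit of the score, Igfbp2 rose by 1.05 on the log2 scale in the lower and by 1.18 in the higher numbers, Col1a2 by 1.04 and 1.20, Slc22a6 by 1.26 and 1.23, and Acta2 by 1.00 and 0.68. Of the smooth muscle genes, Tagln rose by 0.89 and 0.57 and Myl9 by 0.62 and 0.38, while Myh11 (0.77 and 0.41), Des (0.92 and 0.41) and Cnn1 (1.96 and 0.96) passed in the lower numbers only. A test of a different slope in the 2 number ranges called 0 genes (edgeR, 228 genes at an unadjusted p under 0.05, smallest adjusted p = 1). With the number range as a covariate in the comparison of the groups, 210 genes (1.79%) were higher and 3 lower, and Znrd2 was not among the latter.

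**Figure D5:**
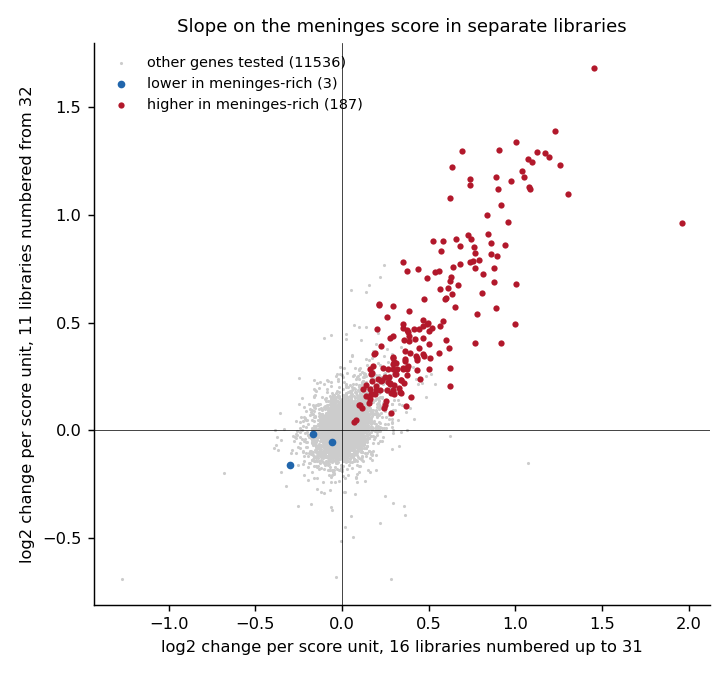
Log2 change per unit of the meninges score in the 16 libraries numbered up to 31 (x axis) and in the 11 numbered from 32 (y axis). Red points are the 187 genes higher and blue points the 3 genes lower in the meninges-rich libraries, which belong to both sets, and grey points are the other genes tested. Most red points lie in the upper right, with Wnt6 at 1.45 and 1.68.

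The 9 middle libraries took no part in the comparison of the groups. Within them 8 genes rose with the score, all of them among the 187, and 165 of the 187 (88.2%) had a positive slope, against 5920 of all 11726 genes (50.5%). Among the named genes called higher, Dcn, Col18a1, Bmp6, Lama1 and Rbp4 had negative slopes there. These slopes lean on rat 47, whose score of 6.395 lies apart from the 7.55 to 8.32 of the other 8. Without it 0 genes were called in either direction by edgeR (408 positive and 441 negative at an unadjusted p under 0.05), and 147 of the 187 (78.6%) had a positive slope, against 5675 of all genes (48.4%). Rat 47 had 22.0 normalized counts of Col1a2, 8.81 of Slc22a6 and 2.94 of Wnt6, the first just below and the others within the range of the meninges-poor libraries. The other 8 middle libraries had 86.2 to 228 counts of Col1a2, between the 2 groups or reaching into the meninges-rich range.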

How the data were processed

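RNA of 27 mPFC samples, 1 per rat, was sequenced as single reads on a NextSeq500. The authors deposited raw read counts per gene and library. Per the labels, reads were trimmed with Trimmomatic, aligned with STAR and counted with HTSeq, and the versions, genome build, annotation and strand setting are not given in the sources used here. The labels and the methods also differ in the section cut and in the library kit. Of 36865 rows, 28157 had a gene symbol in RefSeq GRCr8 and held 99.7% of the counts. Among the rows, 436 with 0.253% of the counts belong to genes split over several loci. Library totals ran from 4907255 to 12771309, with a median of 8168801. Normalized counts are counts divided by median-of-ratios size factors, as in DESeq2, over the 12241 genes with a count in every library.

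The score was the mean log2(normalized count + 1) of Col1a1, Col3a1, Igf2 and Aldh1a2, and the 9 highest were compared with the 9 lowest libraries. Genes with a mean raw count of at least 10 over the 27 libraries were tested, without the 4 ranking genes, by edgeR 4.0.16 (TMM scaling, quasi-likelihood test, R 4.3.3) with Benjamini-Hochberg adjustment over all 11726 genes. Folds are meninges-rich over meninges-poor. Slopes used the score as a covariate. Alternatives were DESeq2 1.42.0 (size factors or Wald test), scaling by totals, other filters, other group sizes and rankings, the number range as a covariate, and leaving out single libraries. In simulated counts with 200 changed of 11726 genes, 94 of 100 with a log2 change of 1 and 70 of 100 with 0.5 were recovered, with 14 false calls. Single values were tested by exact permutation over samples with scipy 1.17.1. Reads carry no molecular identifiers, so counts are not molecules.

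The groups, gene lists and tests were chosen with earlier results of these data known. The genes named were the ranking genes, the 15 with the largest rise and all that fell among called genes with a symbol and a mean of 50 normalized counts or more, the 4 most abundant members of each list, and any gene of the study's text that passed. Examples were picked from these, and the further genes named were chosen after their values were seen. Some genes that passed the test are not reported here by name.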

Additional observations from a re-analysis of the deposited data

Results flagged for a closer look

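Of 44 groups of 9 libraries tested for a single distant value by Dixon's criterion, 6 had such a value. The usual rate of about 1 in 20 holds for independent samples that were not selected. These groups share libraries and were cut by score, so the count of 6 cannot be set against that rate. In the meninges-rich group, rat 24 had 3615 normalized counts of Igf2, with the next library at 1886, and 510 of Aldh1a2, with the next at 327. Both genes took part in the ranking. The same rat had 249 normalized counts of Slc22a6, the organic anion transporter, with the next library at 170. In the meninges-poor group, rat 26 had 61.8 normalized counts of Col1a2 and the next library 43.2. Rat 3 had 151 normalized counts of the smooth muscle actin Acta2 and 197 of Tagln, with the next meninges-poor libraries at 60.2 and 83.6, while its Col1a2, at 33.6, was the median of that group.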

How the results depend on the processing

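The count of 187 higher genes lay between 156 and 262 under the other normalizations, filters, group sizes, rankings, number range covariate and slopes, except for 283 with the score as a slope over the 27 libraries together with the library number block, 8 in the 9 middle libraries alone, and 0 in 8 of these without rat 47, a setting chosen after seeing the data. Leaving out single libraries gave 165 to 202 higher and 0 to 4 lower genes. The count of 3 lower genes was less stable. It was 15 with DESeq2's Wald test, 0 with the 6 highest against the 6 lowest libraries, in the slope over numbers up to 31 and in the middle libraries with or without rat 47, and 1 when ranked by Igf2 and Aldh1a2, with the score from TMM-scaled CPM and in the slope over numbers from 32. The cause was not tested. Without filter 244 genes were higher of 14898 tested. Of 80 called genes followed singly, all 80 stayed called with DESeq2's size factors and its Wald test, 79 with the number range as a covariate, 70 in the slope up to 31 and 65 in that from 32. Both slopes rest on fewer libraries. The calls of Lama1, Rarres2, Col18a1, Efemp1, Serpinh1 and Eln were lost without 14, 13, 12, 11, 10 and 9 of the 18 libraries. In the middle libraries, scaled to the score difference of 2.85 between the groups, the log2 change had the opposite sign for Slc1a2 (0.46), Stac2 (0.21), Rbp4 (-0.04), Bmp6 (-0.12), Lama1 (-0.03), Col18a1 (-0.58) and Dcn (-0.74), all called between the groups. It also did for Sparc (-0.06), Arc (1.46), Hba-a1 (-1.04), Cldn5 (-0.22), Pdgfrb (-0.39) and F7 (0.05), which were not called. All slopes in the middle libraries lean on rat 47. Hba-a1 passed in the slope up to 31 and in that over 27 libraries with the block. No paired analysis was possible because the samples form a single group with 1 library per rat.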
